A study of Nematostella vectensis with 10 samples.

Results

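The control gastrulae of a knockdown experiment in the sea anemone *Nematostella vectensis* gave 5 of its 10 RNAseq libraries, and their transcriptome is described here on its own. The 5 libraries were chosen by their label, Scramble_control, and the other 5 carry the label Nvznf845_shRNA. Embryos of both groups were of wildtype genotype, were raised at 24 °C and were collected whole at 28 hours post fertilization (hpf). The knockdown embryos had been injected with an shRNA against *Nvznf845*, a zinc finger gene, and the control embryos with a scramble RNA, so the controls are injected embryos and not untouched ones. Each library is a pool of about 1000 embryos. Control replicate 1 belongs to batch LA40, replicate 2 to LA42, replicate 3 to LA45, and replicates 4 and 5 both to LA48. What a batch shared (spawning, injection day or library preparation) is not given in the sources used here. Only LA48 holds more than 1 control library, so a batch and a library cannot be told apart for LA40, LA42 and LA45.

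The gastrula of *Nematostella* has an outer ectoderm and an inner layer, and the first stinging cells (cnidocytes) are specified in its ectoderm. A cnidocyte builds a capsule, in many cases a nematocyst loaded with toxins, in a vesicle derived from the Golgi apparatus, and the wall of that capsule is made of short collagens called minicollagens. Because whole embryos were pooled, a higher level of a gene cannot be divided into more cells that express it and more RNA per cell.

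The labels were checked on the targeted gene: *znf845* was at 6.80 to 12.9 CPM (counts scaled to a common library size) in the knockdown libraries, against 51.5 to 59.2 CPM in the control libraries, with the 10 libraries scaled together. No control library went against its label. The study's list of cnidocyte genes gives gene numbers for 38 genes, and all other genes are identified by number alone, since the files do not pair numbers with names. The stage label was not checked, since no library of another stage was compared and markers of other gastrula cell types could not be matched.

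The control libraries held 27150158, 18891111, 49293261, 23650170 and 29627988 estimated counts in replicates 1 to 5. The numbers of genes at a TPM of at least 1 were 16285, 16678, 16174, 17670 and 17584, the fewest in the deepest library, LA45, which had the most genes with any count (22901, against 22288 to 22885 in the others). TPM values correct a count for transcript length and have a fixed sum per library. Of 24520 genes in the files, 14915 (60.8%) reached a TPM of at least 1 in all 5 control libraries and are called detected here. A further 3860 reached it in 1 to 4 libraries, and 688 had no count in any. LA45 was the library most often alone in missing a gene at this TPM limit, with 584 genes detected in every library but that one, whereas 27 genes were missed by LA48 replicate 5 alone. The order depended on the measure. At a CPM of at least 1, with the scaling described below, LA45 had the most genes (17220, against 16376 to 16755 in the others).

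Most detected genes lay within a narrow range. By their median TPM over the 5 libraries, 5902 genes were between 1 and 10, 7837 between 10 and 100, 1049 between 100 and 1000, and 126 between 1000 and 10000. A single gene, NV2.1062, was above 10000. The median detected gene was at 14.0 TPM, with quartiles of 5.77 and 33.1. Detected genes were longer than the rest, with median lengths of 2341 and 1657 bases.

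The upper end of the distribution differed most between libraries. The 10 most abundant genes of each library took 33.3% of its counts in replicate 1 (LA40), 10.8% in replicate 2 (LA42), 56.0% in replicate 3 (LA45), and 7.95% and 6.99% in replicates 4 and 5 (LA48). The same order held for the first gene alone, NV2.13030, which led every library with 16.5%, 4.14%, 23.5%, 2.81% and 2.03% of the counts. In LA45, 7 genes held 50% of the counts, against 142 in LA40, 784 in LA42, and 1025 and 1057 in LA48. The LA48 libraries were alike in this measure, and LA40 and LA45 stood apart.

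**Figure D1:**
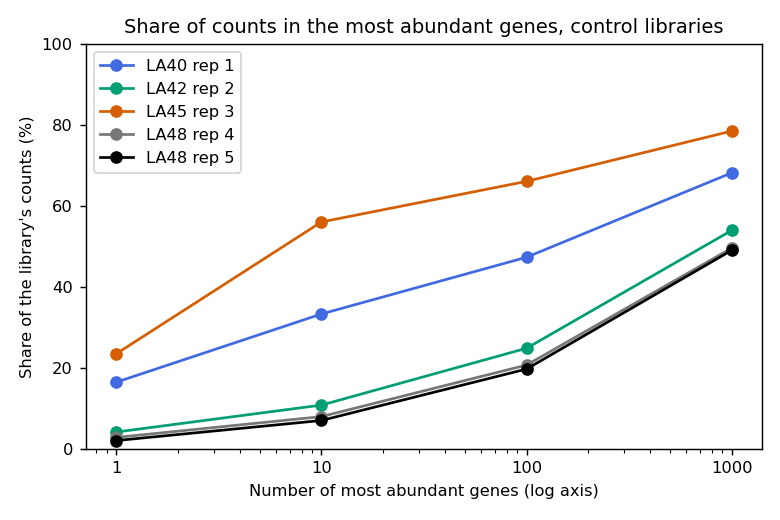
Share of each control library's estimated counts (percent, vertical axis) held by its 1, 10, 100 and 1000 most abundant genes (log axis), with 1 line per library. LA45 and LA40 lie above the others at every point, with 56.0% and 33.3% in 10 genes, and the LA48 libraries nearly coincide at 7.95% and 6.99%.

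By median TPM the 10 most abundant genes were NV2.1062, NV2.1063, NV2.8182, NV2.5887, NV2.13030, NV2.8285, NV2.6253, NV2.8242, NV2.5488 and NV2.8244. The first of them, NV2.1062, was at 46940, 58183, 19531, 57600 and 59577 TPM in replicates 1 to 5. It has 5 annotated transcripts and a gene length of 422 bases, and it held 0.182% to 0.708% of the counts. NV2.13030 is longer (8098 bases) and was at 30371, 7002, 52522, 5400 and 3704 TPM. The TPM order and the count order of the leading genes are different.

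CPM scaled by the trimmed mean of M values (TMM), which discounts genes that differ strongly between libraries, separated 2 kinds of abundant gene. This division was made after the values were seen. Of the 18 genes among the 10 highest by counts in any control library, 11 varied by 21.0-fold to 45.8-fold between the highest and the lowest library. The other 7 varied by 1.09-fold to 2.08-fold. NV2.13030 was at 188083, 33818, 420846, 21831 and 15612 CPM in replicates 1 to 5. NV2.5887, one of the even genes, was at 6376, 6378, 4703, 4995 and 5413 CPM. Thus the even gene stayed within 1.36-fold while NV2.13030 ranged over 27.0-fold.

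The 11 varying genes had a common pattern, which their choice partly fixed. Each was among the 10 highest by counts of some control library and varied by at least 10-fold. A gene's highest library can thus be the one that brought it in. LA45 was their highest library for 10 of the 11, and LA48 replicate 5 their lowest for all 11. The knockdown libraries had no part in the choice, and among them LA45 was highest and replicate 5 lowest for all 11. Together the 11 genes took 27.9%, 8.19%, 66.1%, 8.56% and 3.35% of the counts in knockdown replicates 1 to 5, against 33.5%, 8.87%, 56.3%, 5.98% and 4.41% in control replicates 1 to 5. In both groups the share was highest in LA45 and lowest in replicate 5. Of the 11 genes, 6 lie within 5 gene numbers of another, and reads shared between near-identical neighbours could be divided among them by the counting.

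**Figure D2:**
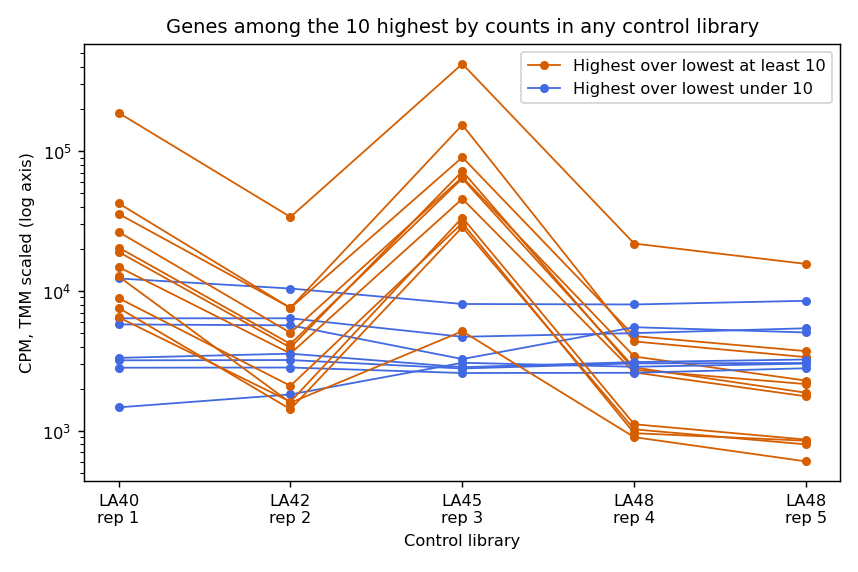
TMM-scaled CPM (log axis) of the 18 genes among the 10 highest by counts in any control library, with 1 line per gene across the 5 libraries. The 11 genes that vary by at least 10-fold (orange) are highest in LA45 for 10 genes and in LA40 for the remaining 1, and the other 7 (blue) stay within 2.08-fold.

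For a typical gene the control libraries were close. Over 17517 genes with enough counts, the standard deviation (SD) of log2 CPM over the 5 libraries had a median of 0.29 and quartiles of 0.19 and 0.44. It was under 0.25 for 39.9% of genes and over 1 for 536 genes (3.06%). The spread was widest for low genes: the median SD was 0.41 in the quartile with the lowest levels, and 0.28, 0.25 and 0.25 in the following quartiles. Without LA45 these medians were 0.36, 0.23, 0.19 and 0.19, and over all genes the median SD was 0.23, so every level quartile was more even without that library.

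The LA48 libraries were the closest of the 10 possible pairs. The median gene differed by 0.11 in log2 CPM between LA48 replicates 4 and 5, against 0.20 to 0.53 (median 0.32) between libraries of different batches. The smallest value between batches was for LA40 and LA42 (0.20), and the largest for LA45 against LA40 (0.53) and against LA42 (0.50). LA45 lay closer to LA48, at 0.26 and 0.30, but on log2(TPM + 1) it was farther from LA48 (0.88 and 0.85) than from LA40 (0.53) or LA42 (0.70), and library size alone and log2(TPM + 0.1) turned the order in the same way. With 5 libraries and 1 pair within a batch, the exact permutation test (one-sided) gave p = 0.1, the smallest value this design allows. Within LA48 148 genes (0.845%) differed by more than 2-fold. The LA48 libraries were not copies of each other, since their counts differed by 3.20 times the sampling noise, against 10.6 to 309 times in the other pairs. Within LA48 the median difference was 0.25 for the lowest quartile of levels and 0.14, 0.086 and 0.067 for the following ones.

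**Figure D3:**
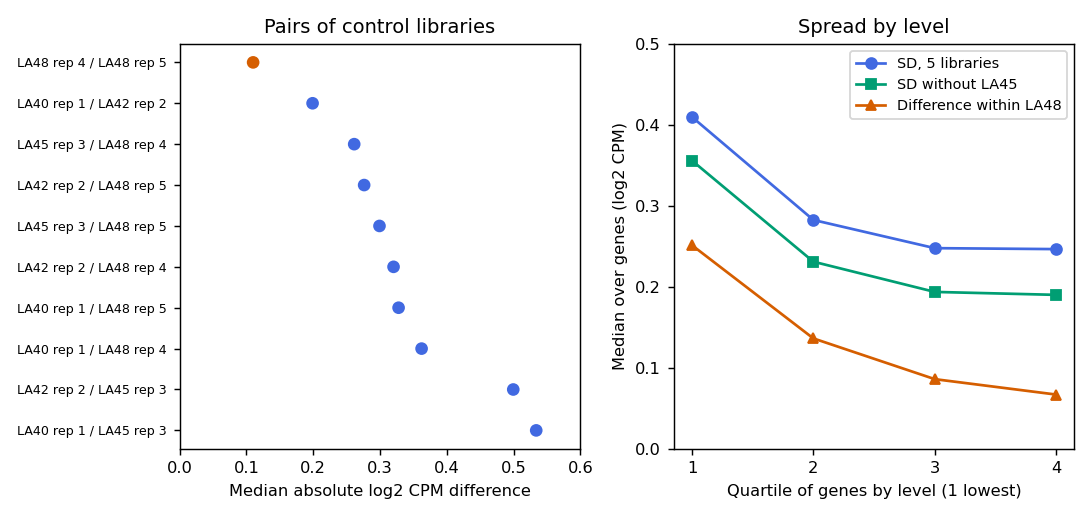
Left, median absolute difference in log2 CPM over genes for each of the 10 pairs of control libraries, with the pair within LA48 (orange) lowest at 0.11. Right, median SD of log2 CPM by quartile of level, over 5 libraries (blue) and without LA45 (green), and the median difference within LA48 (orange); all 3 are highest in the lowest quartile.

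Genes that differed between batches were counted with edgeR's quasi-likelihood test on the 5 control libraries. Of 20403 genes tested, 10957 (53.7%) differed between the 4 batches (adjusted p no higher than 0.05), and 10946 when the 10 most abundant genes were left out. The error in this fit comes only from the LA48 pair, with 1 residual degree of freedom, and that pair is the closest of all. When the knockdown libraries were added with condition and batch as terms, 496 of 19001 genes (2.61%) differed between batches. In the knockdown libraries, replicate 5 minus replicate 4 of LA48 ran from −0.20 for the shortest quartile of genes to 0.26 for the longest, against 0.034 and −0.036 in the controls. Its part in the lower count, and that of batch differences that are not alike in knockdown and control libraries, was not tested.

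A gene was called for a batch where it differed by 1.5-fold or more from the mean of the other 3 batches and its adjusted p did not exceed 0.05. LA45 had the most calls, with 3762 higher genes (18.4%) and 2114 lower genes (10.4%). LA40 had 825 higher (4.04%) and 2427 lower (11.9%), LA42 had 301 higher (1.48%) and 1732 lower (8.49%), and LA48 had 1470 higher (7.2%) and 455 lower (2.23%). The split between higher and lower genes depended on the limit and the scaling. With no limit on the difference LA45 had 5150 higher and 5151 lower genes and LA40 had 3807 and 3692. With upper-quartile scaling LA40 had 1686 higher and 2040 lower genes and LA48 had 1136 and 700, and with library size alone LA45 had 639 and 12677, LA40 had 408 and 3138, LA42 had 7553 and 588, and LA48 had 10558 and 151. With all 10 libraries and batch as a term, LA45 had 751 higher and 87 lower genes.

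The extreme genes of LA45 were mostly low ones. NV2.1518 was at 42.5 CPM in LA45, against 2.48, 0, 13.9 and 14.6 CPM in replicates 1, 2, 4 and 5. NV2.395 was at 12.7 CPM in LA45, against 0, 0, 11.1 and 6.83 CPM, so that it stood apart from LA40 and LA42 but hardly from LA48. NV2.14869 had no count in LA45 and was at 1.47 to 3.76 CPM in the other libraries, which makes it at least 24.4-fold lower in LA45 against a floor of 3 counts in that library. NV2.1242, likewise without a count in LA45, was at 1.43 to 3.39 CPM elsewhere and at least 22.0-fold lower in LA45. The LA45 knockdown library did not share these absences: NV2.14869 was at 4.12 CPM there, against 1.69 to 2.49 CPM in the other knockdown libraries, and NV2.1242 at 1.83 CPM, against 1.31 to 2.42 CPM. NV2.1518 was at 6.57 CPM in the LA45 knockdown library, against 0 to 8.81 CPM, and NV2.395 at 10.5 CPM, against 3.61 to 18.3 CPM, so that neither was highest there.

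The genes highest in LA40 had a sharper pattern. NV2.2342 was at 1424 CPM in LA40 and had no count in the other 4 control libraries. Among the knockdown libraries it was at 1619 CPM in LA40, against 25.7, 0, 173 and 73.5 CPM in replicates 2 to 5. Its number lies between those of NV2.2339 and NV2.2344, both among the 11 abundant varying genes. Whether the counting divided shared reads among them was not tested. NV2.13029 was at 249 CPM in the LA40 control library, against 0 to 0.182 CPM in the other controls, and its number is next to that of NV2.13030. Such cases were rare: of 14959 genes at 3 CPM or more in some control library, 41 (0.274%) had no count in another.

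Gene length moved with the batches. The genes called higher in LA45 had a median length of 3593 bases and those called lower 1502 bases, against 2336 for all genes tested. Relative to LA48, the median log2 difference of LA45 was −0.25 for the shortest quartile of genes and 0.17 for the longest. LA40 ran the other way, with 0.25 for the shortest and −0.38 for the longest quartile, as did LA42, with 0.16 and −0.30. In the knockdown libraries, LA45 minus LA48 was 0.015 for the shortest and −0.065 for the longest quartile, and only LA40 kept its direction, with smaller values of 0.11 and −0.18. The LA48 knockdown libraries behind this reference differed from each other by −0.20 and 0.26 in those quartiles (replicate 5 minus replicate 4). Those differences are larger than the knockdown values of LA40, LA42 and LA45, so the directions there are uncertain. The part of length in the batch calls was not tested.

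**Figure D4:**
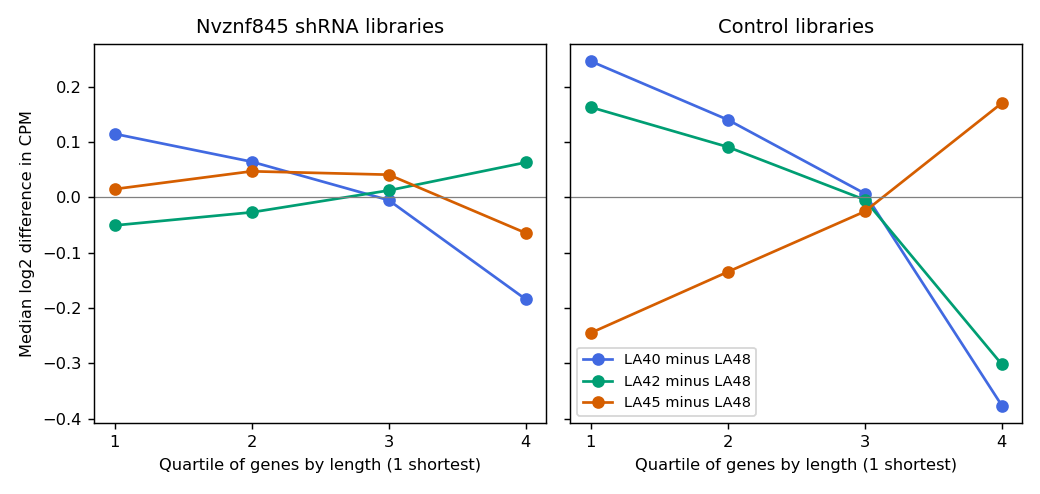
Median log2 difference in CPM of LA40, LA42 and LA45 from LA48, by quartile of gene length (1 shortest), in the knockdown libraries (left) and the control libraries (right). In controls LA45 runs upward, to 0.17, and LA40 and LA42 downward, to −0.38 and −0.30, and in the knockdown libraries only LA40 keeps its direction, reaching −0.18. The LA48 knockdown libraries of the reference differ from each other by −0.20 (shortest) and 0.26 (longest), not drawn here.

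The knockdown libraries of the same batches had no part in these calls and show which of them recurred. Of the genes called lower in the LA48 controls, 96.9% were also lower in the LA48 knockdown libraries, against 51.3% of all tested genes, and of those called higher 89.7% were also higher, against 48.6%. For LA40 84.3% of the lower and 68.6% of the higher genes recurred, against 51.9% and 48.0%. These shares are by direction alone. Where the knockdown difference also had to reach 1.5-fold, 11.3% of the LA40-lower and 11.2% of the LA40-higher genes recurred, against 4.32% and 1.62%. For LA48 that limit left 72.1% of the lower and 47.2% of the higher genes, against 3.5% and 5.14%. For LA45 the result depended on the measure. By direction, 47.1% of the higher genes were also higher in the LA45 knockdown library, against 52.1% of all tested genes, and 60.6% of the lower ones were lower, against 47.8%. When the knockdown difference also had to reach 1.5-fold, 24.96% of the higher genes recurred, against 9.92% of all tested genes, and 3.78% of the lower ones, against 10.5%, which turns the order of the directions round. For LA42 68.4% of the higher and 43.6% of the lower genes recurred, against 46.1% and 53.9%. With the 1.5-fold limit 19.3% of the LA42-higher genes recurred, against 6.09%. Under it 14.1% of the LA42-lower genes recurred, against 3.83%, so these too were below the background by direction and above it by size.

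Of the 38 listed cnidocyte genes 31 were detected in all 5 control libraries, where 60.8% of all genes were. Ranked by mean log2(TPM + 1) against the 14915 detected genes, 18 of these 31 lay above the median and 13 did not. By construction 50% of detected genes lie above it. In the top 10% of detected genes lay 8 of the 31. Against all genes in the files, 30 of the 38 lay above the median. The capsule collagens ranked highest, with 4 of 5 in the top 10%. Of 16 transcription factors 14 were detected and 7 lay above the median. Of 5 genes with toxin or NEP (nematocyst expressed protein) names 2 were detected and 1 lay above the median.

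The minicollagen gene *ncol3* (NV2.10686), whose product is a wall protein of the capsule, was the highest. It was at 1014, 1423, 760, 1239 and 1323 TPM in replicates 1 to 5 (1152 ± 266, SD, n = 5), which ranked it 110 among all genes and above 99.3% of detected ones. Its TPM was lowest in LA45, a library whose 10 leading genes took 49.2% of the TPM. On the TMM-scaled CPM *ncol3* was at 417, 459, 410, 350 and 372, and LA45 lay inside the range of the others.

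The other collagens followed. *ncol4* (NV2.11801) was at 301 ± 78.7 TPM, *mcol1* (NV2.12623) at 257 ± 72.0 TPM and *ncol1* (NV2.12621) at 152 ± 35.7 TPM (SD, n = 5 each), at ranks 330, 390 and 673. *Ncol* (NV2.11820) stood far below them at 12.6 ± 3.51 TPM, just under the median of detected genes. *ncol1* was the most even of the 5, with 75.6, 69.1, 69.2, 65.7 and 69.4 CPM and a coefficient of variation (CV) of 5.16%. The collagens together took 62.1% to 69.5% of the summed TPM of the list, and *ncol3* alone 37.7% to 44.8%.

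Among the toxin and NEP genes, *NEP3-like* (NV2.20491) was alone in being abundant, at 62.3, 92.4, 51.1, 104 and 122 TPM in replicates 1 to 5. *TX60B-like3* (NV2.11971) was at 9.44 ± 3.64 TPM (SD, n = 5). *NEP3* (NV2.20490) was at 0.137 to 0.656 TPM, *Tx60B-like5* (NV2.12610) at 0.261 to 0.437 TPM and *NEP8* (NV2.19484) at 0.0455 to 0.213 TPM, each under 1 TPM in every library. *NEP3* and *NEP3-like* have adjacent numbers, so that reads common to both could be divided between them by the counting.

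The transcription factor genes spanned a wide range. The forkhead gene *foxA* (NV2.11441), known in *Nematostella* from the pharynx as well, was the highest at 131 ± 45.8 TPM. The zinc finger gene *znf845* (NV2.17877) followed at 71.6 ± 20.3 TPM, above 89.9% of detected genes, and then the nuclear receptor gene *coup-like1* (NV2.23247) at 54.5 ± 18.0 TPM, the HMG-box gene *sox2* (NV2.18482) at 47.5 ± 14.1 TPM and the paired-box gene *paxA* (NV2.6786) at 45.2 ± 14.1 TPM (SD, n = 5 each). Within libraries *coup-like1* was above *sox2* in all 5, whereas *paxA* was above *sox2* in replicates 3, 4 and 5 and below it in replicates 1 and 2. The forkhead gene *foxE-like* (NV2.25991) was at 40.9 ± 13.0 TPM and the bZIP gene *ATF2-like1* (NV2.11500) at 33.5 ± 8.97 TPM.

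Below the median of detected genes lay *coup-like2*, *cnido-jun* and *cnido-fos* (bZIP genes of the Jun and Fos families), *GFI1B-like3*, *Nkx2.2D*, *foxL2* and *SoxA*, at mean levels of 2.27 to 9.95 TPM. *SoxA* (NV2.15027) was the lowest of these, above 5.56% of detected genes. *myc5* (NV2.18928), of the Myc family, was at 0.178 to 0.389 TPM and was not detected. The most even listed gene was *ATF2-like1*, at 56.4, 56.6, 56.8, 58.3 and 55.7 CPM in replicates 1 to 5 (CV 1.68%). *ncol1* (CV 5.16%) came next, and *znf845* was at 53.4, 55.1, 61.9, 60.5 and 60.7 CPM (CV 6.50%).

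Of the other named genes, *Ngal* (NV2.5200) was at 206 ± 74.9 TPM and *ggt* (NV2.1925), named for gamma-glutamyl transferase, at 147 ± 51.9 TPM (SD, n = 5 each), both in the top 10%. *dkk3-like3* (NV2.10134), of the secreted Dickkopf family, was near the median at 16.6 ± 6.37 TPM, and *ANTR2-like* and *CALM3-like* were lower at 8.03 ± 2.56 and 4.73 ± 1.57 TPM. Of the 7 genes known only by an NVE number, NVE3843 (46.9 ± 17.7 TPM), NVE15733 (34.0 ± 13.5 TPM) and NVE13546 (27.7 ± 9.66 TPM) lay above the median. NVE15732 and NVE5730 were detected below it, and NVE17236 and NVE26200 were under 1 TPM in some library.

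**Figure D5:**
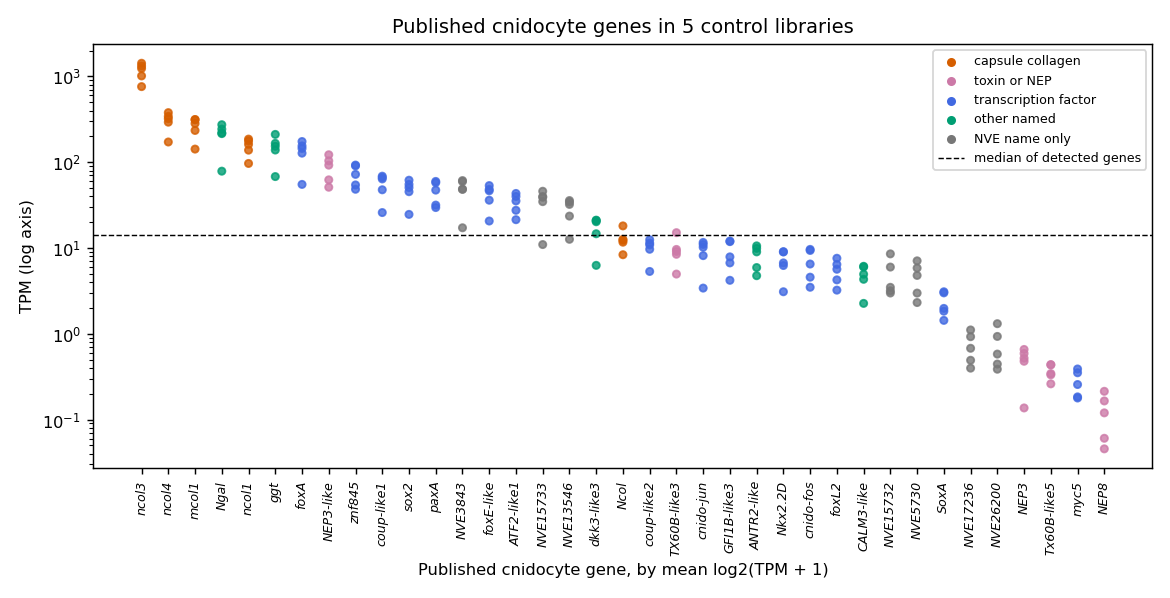
TPM (log axis) in each of the 5 control libraries for the listed cnidocyte genes, ordered by mean log2(TPM + 1) and coloured by role, with 1 point per library; the dashed line is the median of detected genes (14.0 TPM). The collagen genes lead with *ncol3* at 1152 TPM on average, and 3 of the 5 toxin and NEP genes lie under 1 TPM in every library.

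The order of the listed genes was nearly fixed. Over the 31 detected genes, Spearman's correlation of their levels was 0.995 between the LA48 libraries and 0.973 to 0.988 between libraries of different batches; the points are genes, which share their libraries, and no test was made. The summed CPM of the list was 2001, 2128, 1575, 1668 and 1833 in replicates 1 to 5 (1841 ± 228, SD, n = 5, CV 12.4%), lowest in LA45 and highest in LA42. The collagens summed to 663 ± 66.2 CPM and the transcription factors to 548 ± 44.3 CPM (SD, n = 5 each). As a share of the raw counts the list took 0.0879% in LA45, against 0.175% to 0.261% in the others, a gap that the scaled values narrow. The median SD of log2 CPM over listed genes was 0.29, the same as over all genes, but this mixes levels. From the lowest to the highest quartile of level it was 0.39, 0.32, 0.37 and 0.20 for 3, 11, 4 and 14 listed genes. Over all genes of those quartiles it was 0.41, 0.28, 0.25 and 0.25.

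Of the 35 listed genes that passed the count filter, 24 (68.6%) differed between the batches in the edgeR fit of the 5 control libraries, against 53.7% of all genes. The count was 10 of 32 with DESeq2, 2 of 34 with 10 libraries and batch as a term, and 0 of 34 with the replicate block. Over all genes the count fell as well. It was 4601 of 20403 with DESeq2, where some genes got no adjusted p. With 10 libraries it was 496 of 19001 (2.61%) with batch as a term and 157 of 19001 with the replicate block. Those fits include the knockdown libraries, where some listed genes were near the floor, such as *cnido-jun* at 0.0438 to 0.221 CPM. In the fit of the 5 control libraries 7 listed genes were called lower in LA45 (10.4% of all genes were) and 1 higher (18.4% of all genes were). The 7 were *Ngal*, *dkk3-like3*, *cnido-jun*, *foxA*, *ggt*, NVE15733 and NVE3843, and none was a collagen. *Ngal* was at 136 CPM in LA45, against 287, 285, 194 and 221 CPM in replicates 1, 2, 4 and 5, a log2 difference of −0.92 (standard error 0.089, edgeR adjusted p = 6.3e-07). NVE15733 was at 13.1 CPM in LA45, against 36.3, 32.8, 21.2 and 24.3 CPM (log2 difference −1.20, standard error 0.12, edgeR adjusted p = 4.51e-07). In both genes LA45 lay below every other library.

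*foxA* was at 87.1 CPM in LA45, against 155, 147, 117 and 144 CPM in replicates 1, 2, 4 and 5 (log2 difference −0.72, edgeR adjusted p = 0.00501). *ggt* was at 125 CPM in LA45, against 197, 234, 144 and 160 CPM (log2 difference −0.61, edgeR adjusted p = 1.5e-05). With all 10 libraries and batch as a term none of the 7 was called, *coup-like1* being the 1 listed gene then called lower in LA45, and with a replicate block no listed gene was called lower, the 7 having edgeR adjusted p of 0.218 to 0.680. Their differences stayed below 0 in both of these fits. *cnido-jun* was at −0.85 and *dkk3-like3* at −0.72 on the log2 scale with batch as a term, against −0.86 and −0.87 in the 5 control libraries, while *Ngal* was at −0.48, against −0.92. Without replicate 2 *ggt* lost its call. The 10-library fits include the knockdown libraries, where all of the 7 but *foxA* were far lower than in the controls. *cnido-jun* was at 0.0438 to 0.221 CPM there and *Ngal* at 8.59 to 12.3 CPM, against 93.4 to 116 CPM for *foxA*. The part of these low levels in the lost calls was not tested.

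NVE17236 (NV2.10392) was the listed gene higher in LA45, at 5.06 CPM, against 1.39, 1.38, 1.51 and 2.15 CPM in replicates 1, 2, 4 and 5 (log2 difference 1.73, standard error 0.26, edgeR adjusted p = 4.48e-05). It kept its call with all 10 libraries, with a log2 difference of 1.61 under the replicate block (edgeR adjusted p = 0.026). In the knockdown libraries it was again highest in LA45, at 1.91 CPM, against 0.394, 0.981, 0.663 and 0.765 CPM in replicates 1, 2, 4 and 5. In the other batches few listed genes were called. *ggt* and *TX60B-like3* were higher in LA42 (1.48% of all genes were), NVE15733 was higher and NVE5730 lower in LA40 (4.04% and 11.9%), and NVE15732, which has the number next to NVE15733, was higher in LA48 (7.2%).

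Most listed genes have 1 annotated transcript (31 of 38). Of the 6 detected genes with several, *foxL2*, *foxA* and *znf845* were nearly all of 1 transcript, with median shares of the gene's counts of 99.2%, 99.0% and 98.5%. The main transcript of *paxA*, which has 4, took 71.2%, 80.2%, 69.4%, 78.2% and 76.8% in replicates 1 to 5. That of *coup-like1* took 70.3% to 86.4%, and that of NVE5730 40.3% to 74.8%, the widest range of the 6. The shares of NVE5730 differed between the LA48 libraries as well, at 63.0% and 40.3%, so that its range does not separate the batches.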

How the data were processed

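RNA was measured by poly(A) RNAseq (paired-end reads of 150 bases, RNA integrity of at least 8) in 10 libraries, of which the 5 labelled Scramble_control are described. The authors quantified the reads with Salmon against the Nvec200 gene models, whose version and settings no source used here gives. The deposited estimated counts and the authors' TPM values, both per transcript, were summed to 24520 genes by gene number, and the counts were rounded to whole numbers. Salmon divides reads among similar transcripts, so near-identical genes are less certain.

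Counts were fitted with edgeR 4.0.16 in R 4.3.3 (TMM, filterByExpr with a minimum count of 10, robust glmQLFit, glmQLFTest, Benjamini-Hochberg adjustment) with batch as the only term. Log2 CPM used a prior count of 0.5. P-values measure the spread between pools of embryos only. In the fit of the 5 control libraries that spread comes from replicates 4 and 5 of LA48 alone. The exact permutation test was computed in R, and Spearman's correlations between libraries used scipy 1.17.1. Alternatives, including DESeq2 1.42.0 and limma 3.58.1, are in the closing section.

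The members and lists were chosen with earlier results of these data known. The genes named are those of the study's cnidocyte list, the 10 with the highest median TPM, and the 2 highest and 2 lowest called genes of a batch with at least 1 CPM (only those of LA45, and the 2 highest of LA40, are given). The values of 1 listed gene are not reported. Lists for other cell types were not run, as their names match no gene number, and no sequence or position is given. Knockdown libraries of a batch carry the same replicate number as its controls and entered only where stated.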

Additional observations from a re-analysis of the deposited data

Results flagged for a closer look

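Among 51 groups of 5 control values looked at (cnidocyte genes, the 10 most abundant genes, and totals and shares of the libraries), 6 had 1 library far from the other 4, and in each it was LA45. Chance alone puts about 1 in 20 such groups past this limit, and these genes share their libraries. LA45 was above the others for NVE17236 (5.06 CPM, against 1.38 to 2.15), NV2.8182 (28604 CPM, against 800 to 7571), NV2.5488 (33518 CPM, against 866 to 6485) and NV2.8244 (71908 CPM, against 2158 to 19016). It was below the others for NV2.1062 (3260 CPM, against 5049 to 5767) and NV2.8285 (1224 CPM, against 1721 to 1909). The genes NV2.8182, NV2.5488 and NV2.8244 are among the 11 abundant genes that vary by at least 10-fold, and NV2.1062 and NV2.8285 are not.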

How the results depend on the processing

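Of 86 alternatives, 66 left the result within the limits set for it, but those limits were wide. A median share of the 10 most abundant genes of 22.0%, against 10.8%, counted as within them. So did 8110 genes differing between batches, against 10957. Detected genes numbered 9194 at a TPM of at least 5 (14942 to 15499 without 1 library). The median SD (0.29) was 0.63 with library size alone, 0.37 over all genes with a count, 0.45 on log2(TPM + 1), 0.52 on log2(TPM + 0.1) and 0.23 to 0.31 without 1 library. Genes differing between batches (10957) numbered 16837 with library size alone, 4601 with DESeq2, 496 with 10 libraries and batch, and 8110 to 10697 without 1 library. Genes higher in LA45 (3762) numbered 639, 2139 and 751 under the same 3 settings and 3051 to 3294 without 1 library; lower genes (2114) numbered 12677, 1116 and 87, then 1524 to 1876, and 5151 with no limit on the difference. With library size alone the median gene was lower in LA45 (log2 difference −0.998). Listed genes above the median (18) numbered 30 against all genes in the files.

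With the replicate number as a block over the 10 libraries, 157 genes differed between batches, 541 were higher in LA45 and 39 lower. Same-numbered libraries share a batch label, which is what pairs them.

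The share of the 10 most abundant genes had a median of 9.37% to 22.0% without 1 library, against 10.8%. The LA48 pair was the closest under all 8 alternatives, none of which can give a p under 0.1. Leaving out replicate 4 or 5 was not run for the batch tests, since no residual degree of freedom remains, and LA45 cannot be tested without replicate 3. LA40, LA42 and LA45 are 1 library each, so their calls have no replicate. Low counts limit *NEP3*, *NEP8*, *Tx60B-like5*, *myc5* and NVE26200, all under 1 CPM in every library.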
